A study of Mus musculus with 4 samples.

Results

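The genes described here encode 9 subunits of the variant Polycomb repressive complex PRC1.6: *Pcgf6*, *Mga*, *L3mbtl2*, *E2f6*, *Max*, *Rybp*, *Rnf2*, *Ring1* and *Tfdp1*. They were taken as the known subunits of the complex, by gene symbol and with no threshold on their values, from a table of 50559 genes, and all 9 were found and carried enough reads to be compared. Polyadenylated RNA was sequenced from E14 mouse embryonic stem cells (ESCs), which were kept on gelatin in serum replacement with leukemia inhibitory factor. The series asked how the transcriptome depends on YTHDF2, a cytoplasmic reader of N6-methyladenosine (m6A) that promotes decay of the mRNAs it binds, and on its ability to bind m6A.

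There were 4 libraries, 1 per group. The control library, shScram+EV, carried a scrambled hairpin and an empty vector. The knockdown library, shYthdf2+EV, carried a hairpin against *Ythdf2* and the empty vector. The other two carried the *Ythdf2* hairpin together with wild-type YTHDF2 (shYthdf2+DF2WT) or with YTHDF2 mutated at its m6A-binding site (shYthdf2+DF2Mut). They are called control, knockdown, wild type and mutant below, and values listed without a name follow that order. Per the study's methods, hairpins were delivered by lentivirus with puromycin selection, into ESCs with a tdTomato reporter driven by the MERVL promoter; the labels do not say which hairpin sequence was used, and they name no clone. Without replicates no difference was tested. The 95% intervals below are Clopper-Pearson intervals on read pairs, cover counting error only and compare libraries, not conditions.

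PRC1.6 is a chromatin repressor of ESCs that keeps germline and meiotic genes silent. Its catalytic part is an E3 ligase for histone H2A ubiquitylation, made of RING1A (*Ring1*) or RING1B (*Rnf2*) and held to PCGF6, with RYBP stimulating the activity. The complex reaches its sites through sequence-specific subunits: MGA with MAX, which bind E-boxes, and E2F6 with DP1 (*Tfdp1*), which bind E2F sites. L3MBTL2 is its MBT-domain protein. MAX is shared with MYC and the MXD proteins, and RYBP and both RING1 proteins with other PRC1 complexes. In a bulk library, a lower share of expressing cells and less RNA per cell cannot be told apart.

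2 of the promoters held the letters that these DNA-binding subunits are known to recognise. In RefSeq promoters (GRCm38.p6, 250 bases before to 50 after a start; 8 of the 9 genes matched), the E-box CACGTG stood in those of *Max* and *Tfdp1*, and in 7.15% of all 32851 promoters. The E2F site GCGCGAAA, searched on both strands, stood in that of *Tfdp1* and in 0.323% of all promoters. They are shown, with the motif in capitals, because *Max* and *Tfdp1* encode partners of the proteins that read these letters. A match is a description of sequence, not evidence of binding.
Max, E-box, chr12:76962238-76962259, minus strand: agcccggtCACGTGttaggggg
Tfdp1, E-box, chr8:13338512-13338533, plus strand: cgcgcacaCACGTGgcctctct
Tfdp1, E2F site, chr8:13338700-13338723, plus strand: cgccgaagGCGCGAAAaggcgcgc

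YTHDF2 reads m6A, which is laid down mostly in the DRACH context around stop codons. Its commonest form, GGACT in DNA letters (searched on the transcript strand), occurred in the transcript of 8 of the 9 members (GENCODE vM21, GRCm38) and in 92.6% of 14294 tested coding genes. Density ran from 0 per kb in *Tfdp1* to 1.15 per kb in *L3mbtl2*, against a median of 1.06 per kb. In the 3′ UTR, 7 of the 9 members held at least 1 copy, against 62.1% of genes. m6A itself was not measured in these libraries. The copy nearest the stop codon is shown for the members whose RNA differed most between libraries, with *Pcgf6* for contrast; the motif is in capitals.
Rybp, 870 bases before the stop codon, chr6:100287451-100287471, minus strand: gctggcggGGACTagtctcgt
Mga, 454 bases into the 3′ UTR, chr2:119965409-119965429, plus strand: gcatggtaGGACTgggcatgg
L3mbtl2, 367 bases before the stop codon, chr15:81684861-81684881, plus strand: cagtgggtGGACTgcgaatcc
Max, 340 bases before the stop codon, chr12:76953187-76953207, minus strand: agtttgcgGGACTcagtccca
Ring1, 1009 bases before the stop codon, chr17:34023310-34023330, minus strand: ttctgctcGGACTgcatcgtc
E2f6, 364 bases into the 3′ UTR, chr12:16825738-16825758, plus strand: ctggtcgtGGACTgtgccctg
Pcgf6, 328 bases into the 3′ UTR, chr19:47034291-47034311, minus strand: cagagctgGGACTctgccctc

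Totals ran from 31533129 to 35742335 reads per library, and 3 reads corresponded to 0.0835 to 0.0949 CPM (counts per 1000000 reads of the library). The libraries carried their labelled manipulation: *Ythdf2* had 2806 reads in the control, 662 in the knockdown, 7661 with wild type and 6925 with the mutant. *Zscan4c*, a marker of the 2-cell-like state, had 834, 3279, 1023 and 2503 reads in the same order, *Zscan4d* had 1463, 6266, 1792 and 4814, and *Duxf3* had 10, 46, 16 and 18; these genes belong to families of near-identical copies, so their counts are uncertain. All 8 ESC markers were present, summing to between 4956 and 5376 CPM, and fibroblast feeder markers summed to at most 3.34. Trophectoderm markers summed to 105, 68.0, 103 and 67.7, primitive endoderm markers to 16.0, 21.9, 11.9 and 22.7, and germ cell markers to 233, 196, 210 and 196 CPM. *Krt8* (38.5, 18.6, 36.2 and 17.4) and *Tfap2c* (64.9, 48.1, 64.0 and 47.9) made up most of the trophectoderm sum. *Cdx2*, *Gata3* and *Elf5* reached at most 1.67 CPM. Of the primitive endoderm markers, *Gata4* (4.21, 3.37, 2.19 and 2.23) was lower in the knockdown than in the control, while the others were higher. The part of these markers in the results below was not tested. Mitochondrial transcripts took 8.44% of reads in shScram+EV and 6.14% to 6.75% in the other libraries.

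Every PRC1.6 subunit gene was expressed in all 4 libraries, and the order of levels was similar among them. Levels are scaled CPM divided by the annotated exon length in kb. In shScram+EV, *Max* (45.7), *Tfdp1* (44.6), *Rnf2* (40.5), *L3mbtl2* (38.5) and *Rybp* (32.2) formed an upper group. *Pcgf6* (15.6), *Mga* (12.2) and *E2f6* (10.6) lay below them, and *Ring1* (3.87) was the lowest member here and in every other library. In that library *Max* and *Tfdp1*, and likewise *Rnf2* and *L3mbtl2*, were neighbours whose ratio could not be told from 1 within counting error. *Max* led in the first 3 libraries and *Tfdp1* (51.4) in shYthdf2+DF2Mut, where neighbours among *L3mbtl2*, *Max*, *Rybp* and *Rnf2* (44.9 to 40.9) could not be told apart. Annotated exon lengths sum over all isoforms, so levels per kb can be understated, to unequal degrees between genes. The exons summed to 27336 bases for *Mga* and 4853 for *Pcgf6*, against longest coding transcripts (GENCODE vM21) of 13931 and 2159. For *Ring1* both were 2034 bases. The order of genes and the shares between genes below are limited by this.

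**Figure D1:**
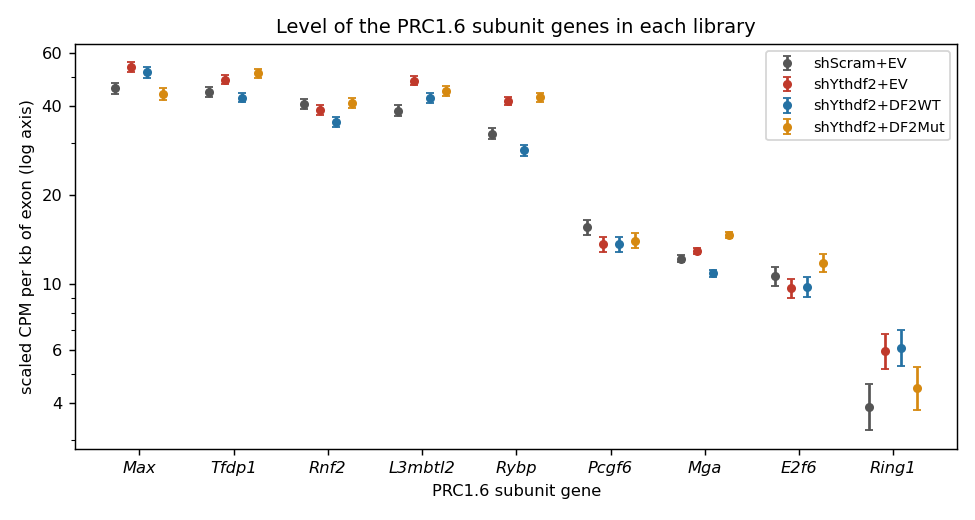
Level of each PRC1.6 subunit gene (vertical log axis, scaled CPM per kb of exon) in the 4 libraries (colours); bars are 95% counting intervals and there is 1 library per group. *Max* sits between 43.9 and 53.8 and *Ring1* between 3.87 and 6.11, with the libraries of each gene close together relative to the distance between genes.

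No member passed 2-fold in any of the 5 comparisons between libraries. The count was 0 of 9 for shYthdf2+EV against shScram+EV, where 12.8% of the 18586 genes tested and 1.38% of the 8542 genes with a mean of at least 500 reads passed. It was also 0 of 9 for shYthdf2+DF2WT against shYthdf2+EV (10.7% and 0.948%), for shYthdf2+DF2Mut against shYthdf2+EV (6.03% and 0.0468%), for shYthdf2+DF2Mut against shYthdf2+DF2WT (11.6% and 1.08%) and for shYthdf2+DF2WT against shScram+EV (6.89% and 0.0937%). All members but *Ring1* had a mean of at least 500 reads, so the second share is the closer background for them. The differences were thus of less than 2-fold, and the counts below use the side of 0 on which the counting interval lay.

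On knockdown, 6 members (*Mga*, *L3mbtl2*, *Max*, *Rybp*, *Ring1* and *Tfdp1*) had an interval above 0 and 1 (*Pcgf6*) had one below it. Among genes with a mean of at least 500 reads, 31.8% lay above and 31.9% below. The median log2 ratio was 0.13 over the 9 members and -0.00 over all tested genes. With wild-type YTHDF2 added to the knockdown, 0 members had an interval above 0 and 5 (*Mga*, *L3mbtl2*, *Rybp*, *Rnf2* and *Tfdp1*) had one below, against 28.3% and 31.7% of genes; the median was -0.13. With the mutant added, 3 lay above and 3 below, against 25.4% and 18.9% of genes, with a median of 0.04. Mutant against wild type put 6 members above 0 and 2 (*Max* and *Ring1*) below, against 37% and 31.1% of genes, with a median of 0.21. In shYthdf2+DF2WT against shScram+EV, 3 lay above and 4 below, against 23.8% and 28.3% of genes, with a median of -0.12. The all-gene median lay within 0.02 of 0 in every comparison. Knockdown against control shares no library with mutant against wild type, nor does mutant against knockdown with wild type against control. All other pairs of these comparisons share a library.

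**Figure D2:**
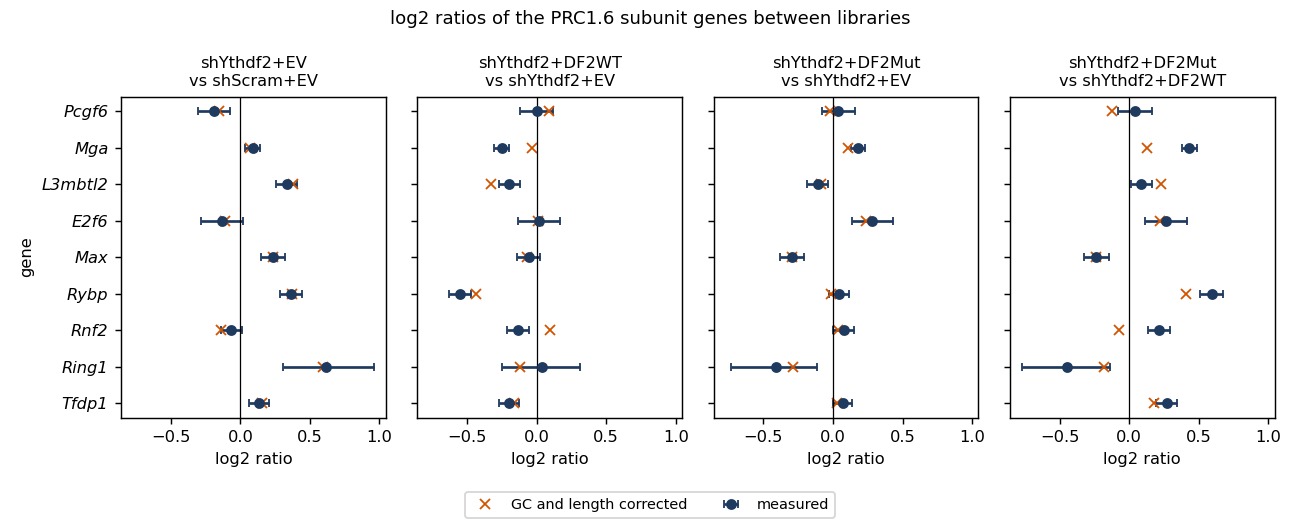
log2 ratios (horizontal) of the PRC1.6 subunit genes (rows) in 4 comparisons (panels); circles are measured ratios with 95% counting intervals, and crosses are the same ratios after correction for the trend with GC content and exon length. *Rybp* lies at 0.36, -0.55, 0.04 and 0.59 from left to right, and no circle lies beyond 1 or -1.

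Of the PRC1.6 genes, *Rybp* had the ratios farthest from 0 for wild-type YTHDF2 against knockdown and for mutant against wild type. *Rybp*, which encodes the RING and YY1 binding protein that stimulates H2A ubiquitylation (chr6:100205526-100264319, minus strand, mm39), had 4452 reads in the control, 6522 in the knockdown, 4079 with wild type and 5938 with the mutant. It was high in the knockdown and mutant libraries and low in the other two. The knockdown log2 ratio was 0.36 (95% interval 0.29 to 0.44). Wild-type YTHDF2 against knockdown gave -0.55 (-0.63 to -0.47), a level at 68.3% of the knockdown library. The mutant stood at 102.9% of the knockdown library, a ratio of 0.04 (-0.03 to 0.11), and at 0.59 (0.51 to 0.67) over the wild type. Of 2515 genes with a mean count within 2-fold of that of *Rybp*, 14.3% lay as far from 0 on knockdown, 2.66% with wild type against knockdown and 5.25% with mutant against wild type. After correction for GC content and length the *Rybp* ratios were 0.37, -0.43 and 0.41 in knockdown, wild type against knockdown, and mutant against wild type.

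*Yaf2*, the paralog that takes the place of RYBP in some PRC1 complexes, was far lower. *Yaf2* had 370, 356, 309 and 346 reads in the order control, knockdown, wild type and mutant. Its knockdown log2 ratio was -0.24 (-0.55 to 0.06), an interval that holds 0. The level of *Rybp* per kb was accordingly 6.43 times that of *Yaf2* in the control (5.53 to 7.51), 9.79 times in the knockdown (8.42 to 11.5), 7.06 times with wild type (6.01 to 8.40) and 9.17 times with the mutant (7.87 to 10.8). The balance thus leaned further to *Rybp* in the knockdown and mutant libraries than in the control library, beyond counting error.

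The catalytic pair did not move alike. *Ring1* (RING1A; chr17:34239766-34243654, minus strand, mm39), the less abundant E3 ligase, had 249 reads in the control, 435 in the knockdown, 409 with wild type and 289 with the mutant. It was high in the knockdown and wild-type libraries and low in the control and mutant libraries, an order that sets the wild type beside the knockdown. The knockdown log2 ratio was 0.62 (0.30 to 0.96), a level at 153% of control, and 18.8% of 3526 genes of like count lay as far from 0. Wild type against control gave 0.66 (0.33 to 0.99), as far from 0 as 3.40% of those genes. The mutant stood at -0.41 (-0.74 to -0.11) against knockdown and at -0.45 (-0.77 to -0.14) against wild type, and the latter was -0.19 after correction for GC content and length. The longest annotated transcript of *Ring1* had a GC content of 56.9%, the highest among the members.

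*Rnf2* (RING1B; chr1:151345149-151376747, minus strand, mm39), the main H2A ubiquitin ligase of ESCs, had 5445, 5914, 4935 and 5525 reads. Its knockdown ratio was -0.07 (-0.14 to 0.01), and its ratio for mutant against wild type was 0.21 (0.13 to 0.29). The longest annotated transcript of *Rnf2* had the lowest GC content of the members, 39.5%. With the GC and length correction the *Rnf2* ratio for wild type against knockdown turned from -0.13 to 0.09. That for mutant against wild type turned from 0.21 to -0.07. Within a library, *Rnf2* stood at 10.5 times *Ring1* per kb in the control (8.77 to 12.7), 6.50 times in the knockdown (5.65 to 7.48), 5.77 times with wild type (5.02 to 6.71) and 9.15 times with the mutant (7.76 to 10.9). *Rnf2* transcripts therefore outnumbered *Ring1* transcripts in every library, by a smaller measured factor in the knockdown and wild-type libraries. These factors carry no GC and length correction. Corrected log2 ratios of *Rnf2* and *Ring1* were -0.14 and 0.59 on knockdown, and -0.05 and 0.47 for wild type against control. For mutant against wild type they were -0.07 and -0.19, closer together than the measured 0.21 and -0.45.

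Ratios in the comparisons with the YTHDF2 constructs ran with the GC content of transcripts and the length of the exons. Across 8364 abundant genes, Spearman's rho between the GC content of the longest annotated transcript and the log2 ratio was 0.00 on knockdown. It was 0.44 for wild type against knockdown and -0.28 for mutant against knockdown. For mutant against wild type it was -0.51, and for wild type against control 0.58. With exon length, rho was -0.15, -0.15, 0.43, 0.37 and -0.37 in the same order. All points of a comparison come from the same 2 libraries, and the rho values are descriptions. The part of GC content and length in the member ratios was not tested beyond the corrected values.

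*Pcgf6*, the subunit that defines PRC1.6, was nearly flat among the libraries with the *Ythdf2* hairpin. *Pcgf6* (chr19:47022056-47039379, minus strand, mm39) had 2387 reads in the control, 2384 in the knockdown, 2182 with wild type and 2168 with the mutant, or 75.5, 66.3, 66.3 and 68.2 scaled CPM. The 3 libraries with the *Ythdf2* hairpin stood slightly below control, at -0.19 (-0.31 to -0.07) for the knockdown and -0.19 (-0.31 to -0.07) for the wild type, the latter -0.07 after the GC and length correction. Against the knockdown, wild type gave -0.00 (-0.12 to 0.12) and mutant 0.04 (-0.08 to 0.16). On knockdown 48.7% of 4263 genes of like count lay as far from 0.

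Among the PCGF paralogs, which build the other PRC1 complexes, *Bmi1* and *Pcgf5* differed most. *Bmi1* (PCGF4, of canonical PRC1) had 672, 1096, 565 and 1077 reads, high in the same 2 libraries as *Rybp*. The knockdown log2 ratio of *Bmi1* was 0.52 (0.32 to 0.72), with -0.83 (-1.04 to -0.62) for wild type against knockdown and 0.98 (0.77 to 1.19) for mutant against wild type. After the GC and length correction these were 0.49, -0.61 and 0.67. *Pcgf5*, of variant PRC1, had 701, 537, 663 and 600 reads and a knockdown ratio of -0.57 (-0.81 to -0.34). *Pcgf1* (0.11), *Pcgf2* (0.01) and *Pcgf3* (-0.12) lay nearer to 0 on knockdown, and of these 3 intervals that of *Pcgf3* alone lay off 0. Of the summed level per kb of the 6 PCGF genes, *Pcgf6* took 29.3% in the control (27.9% to 30.6%), 26.9% in the knockdown (25.6% to 28.2%), 26.7% with wild type (25.4% to 28.0%) and 27.2% with the mutant (25.9% to 28.6%). *Bmi1* took 5.50%, 8.26%, 4.62% and 9.04% in the same order.

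**Figure D3:**
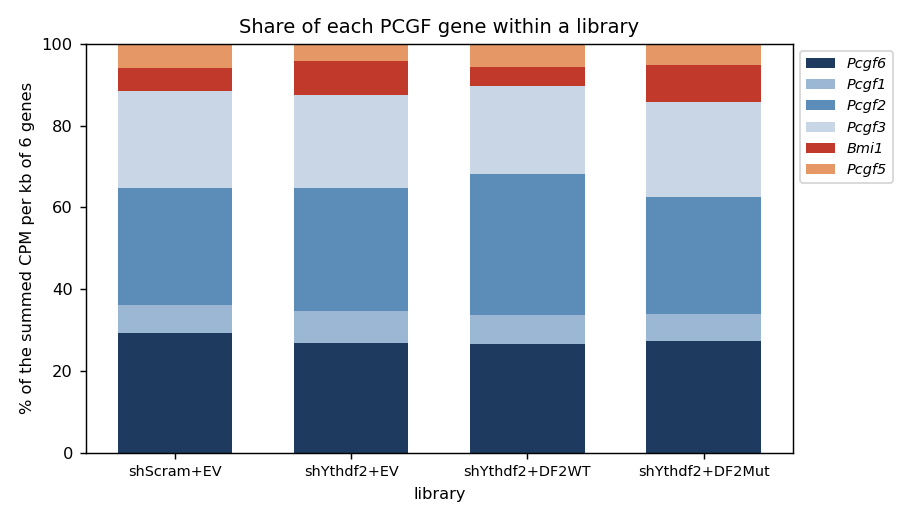
Share of each PCGF gene in the summed reads per kb of the 6 genes (vertical axis, %) in each library (bars). *Pcgf6* takes 29.3% of the shScram+EV bar and 26.7% to 27.2% of the others, while *Bmi1* takes between 4.62% and 9.04%.

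The E-box arm of PRC1.6 was split. *Mga*, the scaffold that binds MAX and carries a T-box (chr2:119702974-119800610, plus strand, mm39), had 10525 reads in the control, 12726 in the knockdown, 9801 with wild type and 12780 with the mutant. It was lowest with wild-type YTHDF2 and highest with the mutant. The ratio was 0.09 (0.04 to 0.14) on knockdown, -0.25 (-0.30 to -0.20) for wild type against knockdown and 0.18 (0.13 to 0.23) for mutant against knockdown. Mutant against wild type gave 0.43 (0.38 to 0.49), and 15.3% of 1026 genes of like count lay as far from 0; with the GC and length correction it was 0.13, wild type against knockdown was -0.03 and mutant against knockdown was 0.11. The ratio of *Mga* for wild type against control turned from -0.16 to 0.03 under the same correction.

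*Max*, the partner of MGA and of MYC (chr12:76984043-77009123, minus strand, mm39), had 3825 reads in the control, 5121 in the knockdown, 4507 with wild type and 3696 with the mutant. Unlike *Mga*, it was lowest with the mutant in reads and stood highest in the knockdown. The knockdown ratio was 0.23 (0.15 to 0.32) and mutant against knockdown was -0.29 (-0.38 to -0.21), as far from 0 as 6.97% of 2972 genes of like count. Wild type against knockdown gave -0.06 (-0.14 to 0.03). *Max* lies on chromosome 12, whose median ratio on knockdown was -0.29, outside the range of -0.04 to 0.04 of the other 18 autosomes. Relative to its chromosome the knockdown ratio of *Max* was 0.52. Chromosome 12 also lay outside the other autosomes for wild type against knockdown (0.19) and mutant against wild type (-0.17). Relative to it, *Max* stood at -0.25 and -0.07 in these comparisons, the latter -0.24 as measured.

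Among the other MAX partners, *Myc* stood out. *Myc*, whose protein binds MAX at E-boxes as an activator, had 286 reads in the control, 861 in the knockdown, 452 with wild type and 765 with the mutant. The knockdown ratio was 1.40 (1.13 to 1.69), wild type against knockdown -0.80 (-1.04 to -0.57) and mutant against wild type 0.81 (0.57 to 1.05). *Mxi1*, a MAX partner that represses, had a knockdown ratio of -0.62 (-0.79 to -0.45), and *Mxd3* one of 0.39 (-0.00 to 0.77). Over the 9 partners tested the median was 0.15, with 1 past 2-fold, against 12.8% of genes tested. Of the intervals 2 lay above 0 and 1 below, against 31.8% and 31.9% of genes with a mean of at least 500 reads. *Mycl*, *Mxd1*, *Mxd3* and *Mxd4* had lower means than that and so wider intervals, which limits this comparison of shares.

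The E2F arm differed little on knockdown. *E2f6*, the repressive E2F that recruits PRC1.6 (chr12:16860932-16876753, plus strand, mm39), had 1414, 1466, 1358 and 1577 reads in the order control, knockdown, wild type and mutant. It was highest with the mutant. The knockdown ratio was -0.13 (-0.28 to 0.02), an interval that holds 0, and relative to the median of chromosome 12, where *E2f6* also lies, it was 0.15. Mutant against knockdown gave 0.28 (0.13 to 0.43), as far from 0 as 12.1% of 4700 genes of like count.

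*Tfdp1*, which encodes the DP1 partner of E2F proteins (chr8:13388273-13428448, plus strand, mm39), had 5406, 6753, 5381 and 6270 reads. Knockdown gave 0.13 (0.06 to 0.21), with -0.20 (-0.27 to -0.13) for wild type against knockdown and 0.27 (0.20 to 0.35) for mutant against wild type, with the control and wild-type libraries low; the last was 0.18 after the GC and length correction. *Tfdp2*, its paralog, had 3246, 4113, 3136 and 4401 reads, a knockdown ratio of 0.16 (0.06 to 0.25) and a ratio of 0.54 (0.44 to 0.63) for mutant against wild type. *Tfdp1* stood at 3.76, 3.70, 3.87 and 3.21 times *Tfdp2* per kb in the 4 libraries. Of the 7 other E2F genes, 3 had knockdown intervals above 0 and 2 below, against 31.8% and 31.9% of abundant genes. Their median was -0.00. *E2f1*, an activator of S-phase genes, had 1919, 1429, 1918 and 1548 reads and a knockdown ratio of -0.61 (-0.75 to -0.47). *E2f8*, an atypical repressive E2F, had a ratio of 0.42 (0.27 to 0.57), and *E2f5* one of -0.32 (-0.49 to -0.15).

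*L3mbtl2*, the MBT-domain subunit that compacts chromatin (chr15:81548090-81572516, plus strand, mm39), had 4637 reads in the control, 6640 in the knockdown, 5306 with wild type and 5443 with the mutant. It was highest in the knockdown, and both YTHDF2 constructs stood between knockdown and control. The knockdown ratio was 0.33 (0.26 to 0.41), as far from 0 as 16.9% of 2395 genes of like count. Against knockdown, wild type gave -0.20 (-0.27 to -0.12) and the mutant -0.11 (-0.18 to -0.04); after the GC and length correction the former was -0.33. The counting was unstranded, and 2.91% of *L3mbtl2* exon bases overlap the antisense gene *Chadl*. Of the other MBT-domain genes, 5 of 6 were tested, with a median of 0.02. They had 1 knockdown interval above 0 and 1 below, against 31.8% and 31.9% of abundant genes. *Sfmbt2* had a ratio of -0.49 (-0.71 to -0.27), *L3mbtl1* 0.24 (-0.58 to 1.09) and *Mbtd1* 0.16 (0.07 to 0.25).

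The further components of PRC1.6 had knockdown ratios between -0.24 and 0.16. Of 6 genes, 2 had intervals above 0 and 1 below, against 31.8% and 31.9% of abundant genes, and the median was 0.03. *Wdr5*, a WD-repeat scaffold, had a ratio of -0.22 (-0.28 to -0.16). *Hdac2*, a histone deacetylase, had 0.13 (0.05 to 0.21) on knockdown and 0.38 (0.30 to 0.47) for mutant against wild type, which were 0.08 and 0.19 after the GC and length correction. *Hdac1* (0.02) and *Cbx3* (0.04), which encodes HP1 gamma, had knockdown intervals that held 0; 6.01% of *Cbx3* exon bases overlap the antisense *Hnrnpa2b1*.

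Of 16 other PRC1 subunits tested on knockdown, 8 had intervals above 0 and 3 below, against 31.8% and 31.9% of abundant genes. 1 passed 2-fold, against 12.8% of genes tested, and the median was 0.22. *Cbx8*, a chromodomain reader of H3K27me3 in canonical PRC1, had 41 reads in the control, 113 in the knockdown, 65 with wild type and 58 with the mutant, with a knockdown ratio of 1.27 (0.54 to 2.11). *Cbx2*, its paralog, had 738, 1275, 867 and 1081 reads and a ratio of 0.60 (0.42 to 0.79). *Cbx6* had a ratio of 0.44 (0.31 to 0.56). In the wild-type library against control the list had 7 intervals above 0 and 1 below, against 23.8% and 28.3% of abundant genes; over the 15 genes with a GC value its median there was 0.17, and 0.08 after the GC and length correction.

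**Figure D4:**
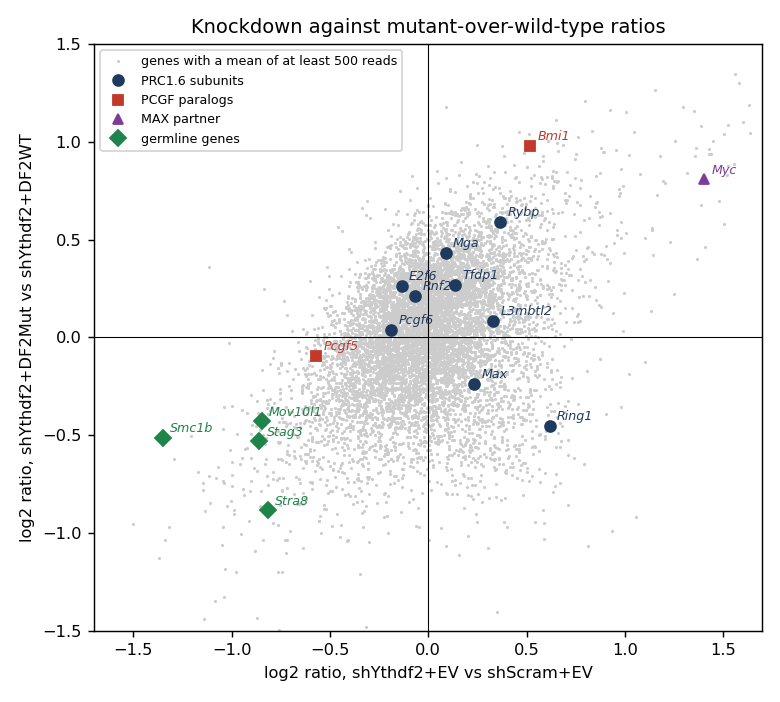
log2 ratio of shYthdf2+DF2Mut to shYthdf2+DF2WT (vertical) against that of shYthdf2+EV to shScram+EV (horizontal), which share no library; grey points are the genes with a mean of at least 500 reads, of which 42 of 8542 lie off the axes. The ratios are as measured, without the GC and length correction. *Rybp* (0.36 and 0.59) and *Bmi1* (0.52 and 0.98) lie to the upper right, *Max* (0.23 and -0.24) and *Ring1* (0.62 and -0.45) to the lower right, and *Smc1b*, *Stag3*, *Mov10l1* and *Stra8* to the lower left.

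Germline genes described as targets of PRC1.6 had more intervals below 0 than above on knockdown. Of 23 tested, 10 lay below and 1 above, against 31.9% and 31.8% of abundant genes. 1 passed 2-fold in each direction, against 12.8% of genes tested in both directions together. The median was -0.08; over the 22 genes with a GC value it was -0.12, and -0.22 after the GC and length correction. *Smc1b*, a meiotic cohesin subunit, had 1638 reads in the control, 730 in the knockdown, 1210 with wild type and 819 with the mutant. The knockdown ratio of *Smc1b* was -1.35 (-1.53 to -1.17), with 0.86 (0.67 to 1.05) for wild type against knockdown and -0.51 (-0.70 to -0.33) for mutant against wild type, which was -0.79 after the correction. *Stag3*, another meiotic cohesin subunit, had 3044, 1910, 2851 and 1908 reads and a knockdown ratio of -0.86 (-0.98 to -0.74). *Mov10l1*, a helicase of the piRNA pathway, had 993, 628, 835 and 599 reads and a ratio of -0.85 (-1.05 to -0.64). These 3 were low in the knockdown and mutant libraries and higher with wild-type YTHDF2. The list as a whole was not. For mutant against wild type it had 8 intervals above 0 and 7 below, against 37% and 31.1% of abundant genes. The median of the list there was 0.02. Exons of *Stag3*, like those of *E2f1* and *Cbx2*, overlap another gene, so their counts are less certain.

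*Stra8*, the retinoic acid-responsive gatekeeper of meiosis, was named after its values were seen; it had 2011, 1300, 1945 and 1019 reads and a knockdown ratio of -0.82 (-0.96 to -0.67). *Meiosin*, its partner, passed 2-fold upward at 1.02 on 11 and 26 reads, with an interval of -0.57 to 2.61 that holds 0. *Asz1* was the 1 gene with an interval above 0, at 0.39 (0.07 to 0.73) and 0.20 after the correction, and was also named after its values were seen. In shYthdf2+DF2WT against shScram+EV the list had 2 intervals above 0 and 10 below, against 23.8% and 28.3% of abundant genes. Of the 5 germ cell markers summed above, 4 also belong to this list, so that sum is no separate measurement; *Nanos3*, the remaining marker, stood at 0.886 CPM in the control and 1.61 in the knockdown.

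**Figure D5:**
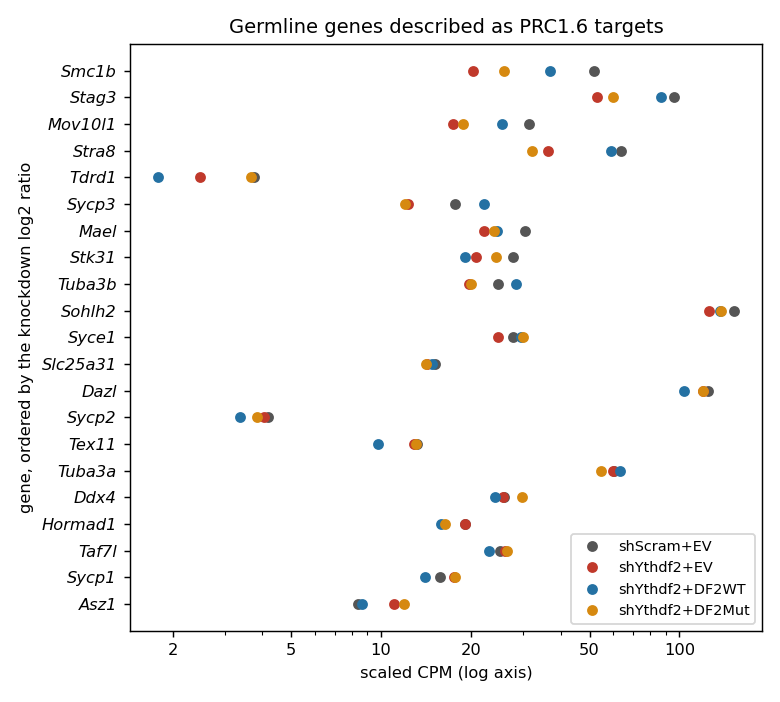
Level (horizontal log axis, scaled CPM) of the 21 germline genes with a mean of at least 50 reads in the 4 libraries (colours), ordered by knockdown log2 ratio with the lowest at the top. In the top rows the knockdown and mutant points of *Smc1b*, *Stag3* and *Mov10l1* sit to the left of the control and wild-type points, and in *Asz1*, at the bottom, they sit to the right.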

How the data were processed

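RNA was prepared as poly(A)+, dUTP-marked libraries and sequenced as paired ends. The authors deposited 1 table of counts of reads per gene for all libraries; 0 of its sample columns were left unused. Per the file headers, featureCounts 2.0.3 counted exons of the UCSC mm39 RefSeq annotation without strand and with both mates counted, while the submitters' processing notes name fastp 0.19.4, HISAT2 2.2.1, DESeq2 1.40.2 and mm10; the coordinates in the table are those of mm39. The study's methods state replicates, but the labels give 1 library per group.

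Counts were scaled by TMM (edgeR 4.0.16, R 4.3.3), with a prior count of 0.5 before log2 ratios. Genes with a mean of at least 10 reads were compared; 2-fold was the threshold. Intervals treat 2 reads as 1 pair at a 95% level; amplified reads are not independent molecules. No p-value was computed. Genes of like count have a mean within 2-fold. The members were picked by symbol and not by a threshold, but the choice of this complex and of the gene lists was made with earlier results of these data known. Named genes were the members, the PRC1.6 components and PCGF paralogs, of each other list the 3 largest knockdown ratios at a mean of at least 50 reads plus any past 2-fold, and the 3 genes nearest in pattern to *Pcgf6* and *Mga*. GC content was that of the longest GENCODE vM21 transcript per symbol, not of the counted exons. It was available for 90.0% of genes compared and all 9 members. The procedure was tested on simulated data. Alternatives were other scalings, prior counts, filters and thresholds, a GC and length correction, and centring by chromosome.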

Additional observations from a re-analysis of the deposited data

How the results depend on the processing

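With 1 library per group no replicate could be left out. No paired analysis was possible because no group has a replicate. Of 491 alternative values for 69 results, 439 stayed within counting error or, for counts, within 1.5 times, 49 moved, and 3 turned direction among values whose interval lay off 0. Of 315 single-gene values 15 took the other sign, 12 of them where the interval held 0. The scalings (total counts, upper quartile, DESeq2 size factors, TMM without chromosomes 12, Y and M) moved a member's log2 ratio by at most 0.05. The members below 0 on knockdown numbered 3 with upper-quartile scaling, 2 without those chromosomes and 2 with the GC and length correction. At 1.5-fold, 1 member passed on knockdown (*Ring1*), 1 for mutant against wild type (*Rybp*) and 1 for wild type against control (*Ring1*). Of genes of like count, 18.8%, 5.25% and 3.40% lay as far from 0 as these. The share of all genes past 1.5-fold was not computed, so these counts have no background.

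With the GC and length correction, wild type against knockdown had 1 member above and 3 below 0, wild type against control had 0 below, and the median for mutant against wild type was 0.13. The correction turned *Rnf2* for wild type against knockdown (0.0939) and mutant against wild type (-0.0736), and *Mga* for wild type against control (0.0312); 13 other single-gene values moved with it and 9 with centring by chromosome, where the median for wild type against knockdown was -0.22. The cause was not tested. From raw reads in place of levels per kb, with longer genes weighing more, *Rnf2* to *Ring1* was 21.9, 13.6, 12.1 and 19.1, *Rybp* to *Yaf2* 12.03, 18.3, 13.2 and 17.2, *Tfdp1* to *Tfdp2* 1.67, 1.64, 1.72 and 1.42, and the *Pcgf6* share 23.1%, 21.4%, 21.6% and 21.4%, in the order control, knockdown, wild type and mutant. Among the members, depth limits *Ring1* most; its intervals were the widest.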

Other observations

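The genes nearest to *Pcgf6* in pattern, by Euclidean distance over 3 log2 ratios to shScram+EV among 10816 genes, were *Dars*, which had 7845, 7773, 7164 and 7055 reads in the control, knockdown, wild-type and mutant libraries, then *Pigo* and *Snap23*. Those nearest to *Mga* were *Ncoa4-ps*, *Cnot11* and *Zfp53*. *Cnot11*, a subunit of the CCR4-NOT deadenylase, had 1711, 2043, 1584 and 2103 reads, low with wild-type YTHDF2 and high with the mutant. The distances ran from 0.0184 for *Dars* to 0.0288 for *Zfp53*. With 4 libraries, a likeness of this kind is a description.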
